A study of Mus musculus with 12 samples.

Results

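The tricarboxylic acid (TCA) cycle and fatty acid oxidation (FAO) were examined through 45 genes chosen by name, 18 for the TCA cycle and 27 for FAO, of the 20792 genes listed for sorted mouse hematopoietic stem and progenitor cells (HSPCs). The cells were taken from bone marrow as lineage-negative cells without CD127 that carried both c-kit and Sca-1, and total RNA was sequenced in 4 groups of 3 libraries. The comparisons ask whether a high-salt diet (HSD) is reflected in the metabolic genes of these progenitors with and without a brain hemorrhage. All mice were wild type, and only males were used. The ND group ate normal diet (ND), and the HSD group received chow and drinking water rich in salt. The ND ICHD7 and HSD ICHD7 groups were sampled 7 days after intracerebral hemorrhage (ICH), modeled by injecting autologous blood into the brain. In all 4 groups diets lasted 8 weeks and were taken to have started at 6 weeks of age, the age given for the ICH design. All animals with ICH ate ND after the injury, so that HSD ICHD7 mice had been fed HSD before but not after ICH. Each ND and HSD library was pooled from 3 animals, and the number behind an ICHD7 library is not given in the sources used here.

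The TCA cycle joins acetyl-CoA to oxaloacetate and oxidizes it through isocitrate, 2-oxoglutarate, succinyl-CoA, fumarate and malate in the mitochondrion. FAO supplies acetyl-CoA by activating fatty acids, carrying them into the mitochondrion as carnitine esters and shortening them in repeated rounds of dehydrogenation, hydration, dehydrogenation and thiolysis. Hematopoietic stem cells at rest are known for glycolysis and for a dependence on FAO, and their progeny draw more on mitochondrial oxidation.

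Levels are counts per 1000000 reads (CPM) as scaled by the authors, and differences are log2 fold changes ± SE of log2(CPM + 0.5), a scale that understates the change of low genes. Libraries held 8678304 to 27491973 reads. All 18 TCA genes and 26 of 27 FAO genes had at least 10 reads in each of the 12 libraries, Ppara being the exception. In bulk RNA, fewer cells of a type and less RNA per cell cannot be told apart.

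Libraries differed in their marker genes. HSD ICHD7 replicate 3 had 14 of 15 HSPC markers at their lowest and 10 of 10 granulocyte-monocyte (GM) progenitor markers, a list chosen after its values were seen, at their highest of the 6 ICHD7 libraries. The GM markers summed to 14121 CPM there, against 4389 to 5331 CPM in the other HSD ICHD7 libraries, 2496 to 3778 CPM in ND ICHD7 and 1322 to 2490.2 CPM without ICH. The HSPC markers summed to 1175 CPM there, 1797 and 1815 CPM in the other HSD ICHD7 libraries, 1939 to 1981 CPM in ND ICHD7 and 1976 to 2196 CPM without ICH. Between HSD ICHD7 and ND ICHD7, 7 of 15 HSPC markers were separate and lower, against 13.3% of all genes. Of the GM markers, 8 of 10 were separate and higher, against 10%. A separation holds for every library of both groups, so leaving out HSD ICHD7 replicate 3 could not undo these and is no check on them. The mitochondrially encoded genes summed to 105318 CPM in that library and 54683 to 88030.0 CPM in the other 11. In ND replicate 1 and HSD replicate 2, 15 of 18 macrophage markers lay above their levels in all other libraries, with sums of 583 and 1036 CPM against 113 to 242 CPM. Erythroid markers summed to 342 CPM in ND replicate 1, 282 CPM in HSD replicate 2 and 34.1 to 151 CPM in the other libraries. In those 2 libraries 5 of 10 erythroid markers lay above all others, and 9 of 10 were lowest in HSD ICHD7 replicate 3 of the 6 ICHD7 libraries. Mature neutrophil markers summed to 185 to 286 CPM over 11 of 12 genes and B and T cell markers to 10.1 to 24.2 CPM over 8 of 12. The others, Ly6g, Cd3d, Cd3e, Cd3g and Cd8a, were not among the listed genes, and their levels are not known. No marker among the listed genes was at 0 throughout. Kit, which encodes c-kit, had 329 to 487 CPM, and Ly6a, which encodes Sca-1, 2.42 to 6.72 CPM. The part of these differences in the results was not tested.

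**Figure D1:**
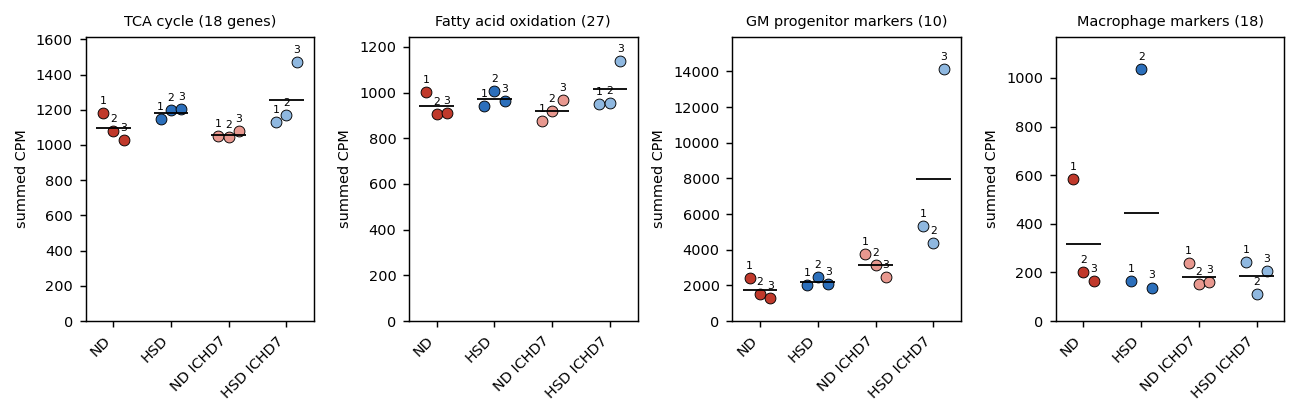
Summed CPM per library (y axis) of the TCA genes, the FAO genes, GM progenitor markers and macrophage markers, by group (x axis). Points are libraries and lines are group means of 3 libraries. HSD ICHD7 replicate 3 is highest for the TCA genes (1472 CPM), the FAO genes (1138 CPM) and the GM progenitor markers.

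Levels between genes were compared as CPM per kilobase of exon. Idh2, the mitochondrial NADP-dependent isocitrate dehydrogenase, was the highest TCA gene in every group, at 59.5 ± 5.99 in ND, 63.3 ± 3.601 in HSD, 57.8 ± 3.89 in ND ICHD7 and 64.6 ± 7.56 in HSD ICHD7 (SD, n = 3). The mitochondrial malate dehydrogenase Mdh2 and the cytosolic Mdh1 followed, with means over 12 libraries of 32.8 and 28.2, and their ratio was 1.03 to 1.32 in single libraries. The NAD-dependent isocitrate dehydrogenase subunits Idh3g, Idh3b and Idh3a had 23.7, 17.2 and 12.2. Cs, citrate synthase, had 12.2. Me2, the mitochondrial malic enzyme, at 4.94 and Pcx, the pyruvate carboxylase that refills oxaloacetate, at 0.801 were lowest.

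Ratios of CPM per kilobase between partners spanned less than the ratio of the NADP-dependent isoforms. Idh3a to Idh3g ranged from 0.479 to 0.556 over the 12 libraries, and the 2-oxoglutarate dehydrogenase subunits Ogdh to Dlst from 2.79 to 3.41. The succinyl-CoA ligase subunits Suclg2 (GDP-forming) and Sucla2 (ADP-forming) had means of 10.3 and 8.20 and a ratio of 0.962 to 1.49. Idh1, the cytosolic isoform, had a mean of 12.6, and Idh2 to Idh1 ran from 2.16 to 8.35, lowest in HSD ICHD7 replicate 3.

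Etfb, a subunit of the flavoprotein that takes electrons from acyl-CoA dehydrogenases, was the highest FAO gene in every group, at 64.1 ± 5.64 in ND, 68.5 ± 9.72 in HSD, 66.4 ± 6.14 in ND ICHD7 and 93.6 ± 34.3 in HSD ICHD7 (SD, n = 3). Another gene on the same strand, Gm45233, covers 53.0% of its exon bases. The acyl-CoA dehydrogenases Acadl for long, Acads for short, Acadm for medium and Acadvl for very long chains had 34.0, 17.8, 12.03 and 9.21. Dvl2 on the opposite strand overlaps 42.9% of Acadvl, and the strand setting of the counting is not given in the sources used here. The acyl-CoA synthetases, which activate fatty acids, had 16.2 for Acsl5, 6.28 for Acsl4, 6.17 for Acsl3 and 3.00 for Acsl1. With the longest coding transcript as the length, an alternative chosen after seeing the data, Acsl1 stood above Acsl3 and Acsl3 above Acsl4. Acadm (23.0) then stood above Acads (21.6), also among the top 3 FAO genes, and Sucla2 (14.7) above Suclg2 (14.2). Mdh1 fell from the top 3 TCA genes and Pck2 took the place of Me2 among the lowest. Ehhadh, a peroxisomal bifunctional enzyme, at 0.844 and Ppara at 0.0946 were the lowest FAO genes.

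**Figure D2:**
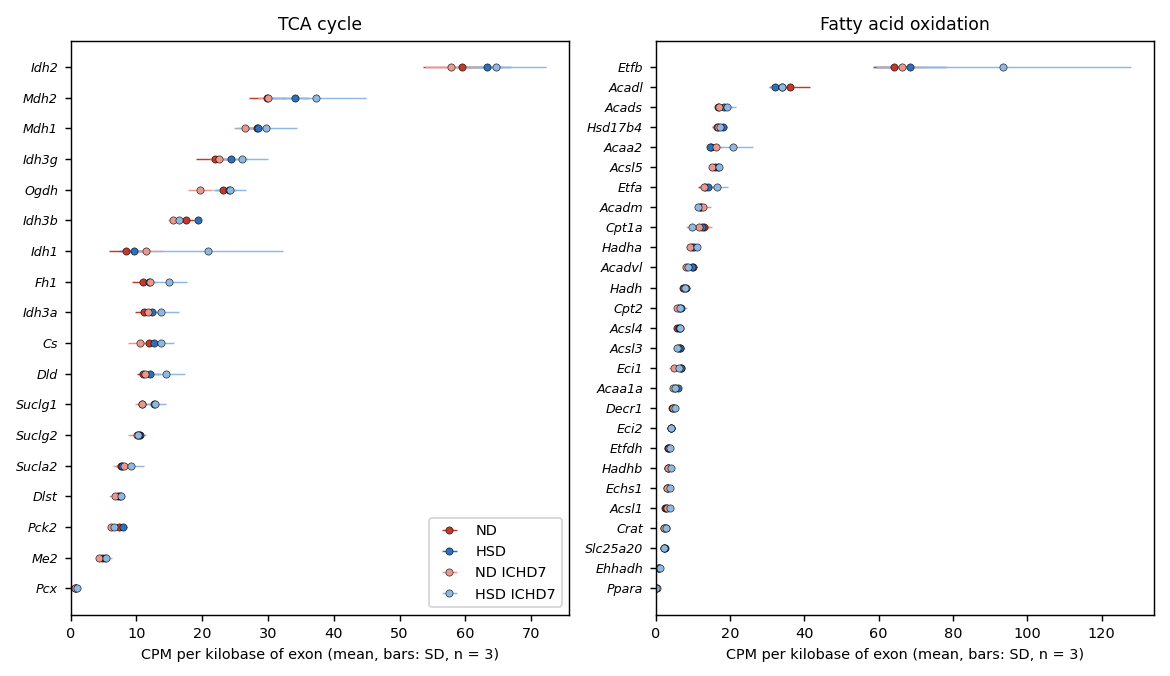
Level of each gene (x axis, CPM per kilobase of exon) in the 4 groups, for the TCA cycle (left) and FAO (right). Points are means and bars SDs of 3 libraries. Idh2 and Etfb are highest in all groups.

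Without ICH, 17 of 18 TCA genes had a higher mean on HSD than on ND, Suclg2 being the exception, with a median log2 fold change of 0.12. The median was 0.02 over all genes tested and 0.03 over genes with a mean above 10 CPM, of which 60.2% were higher. An unadjusted limma p under 0.05 was reached by 2 of 18, both higher on HSD, against 6.93% of all genes and 3.65% in this direction. The groups did not overlap for 4 of 18, all higher on HSD, against 12.8% of all genes and 7.07% in this direction. For genes above 10 CPM, 4.89% had such a p in this direction and 8.66% were separate and higher. After adjustment over all genes, 0.0774% of all genes passed by limma, and 0 of the TCA genes by limma, edgeR or DESeq2. At an unadjusted p under 0.05, edgeR with TMM and DESeq2 each called 1.

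Suclg1, the subunit common to both succinyl-CoA ligases, had 50.6, 51.1 and 47.6 CPM in ND and 59.9, 54.4 and 60.6 CPM in HSD (0.22 ± 0.08, limma adjusted p = 0.597). Mdh2, which regenerates oxaloacetate, had 112, 111 and 95.2 CPM in ND and 114, 129 and 121 CPM in HSD (0.20 ± 0.08, limma adjusted p = 0.680). These were the 2 genes with an unadjusted p under 0.05, and in both the lowest HSD library was above the highest ND library. Idh3b (0.15 ± 0.08, limma adjusted p = 0.765) and Pcx (0.37 ± 0.20, limma adjusted p = 0.765) were also separate between groups. Cs overlapped (0.09 ± 0.08, limma adjusted p = 0.866).

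Leaving out ND replicate 1 and HSD replicate 2, the libraries high in macrophage markers, gave 18 of 18 TCA genes with a higher mean on HSD and a median of 0.19. Then 7 had an unadjusted p under 0.05, all higher, against 11% of all genes and 6.64% in this direction. They were Suclg1, Dld, Fh1, Idh3g, Idh3b, Mdh2 and Cs. Without ND replicate 1 alone 6 did, against 8.80% of all genes and 5.36% in this direction. Without HSD replicate 2 alone 2 did, against 7.18% and 3.42%, with 16 of 18 higher and a median of 0.11.

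Of the FAO genes, 17 of 26 tested had a higher mean on HSD without ICH, with a median of 0.07, 2 had an unadjusted limma p under 0.05, both higher, and 4 were separate and higher. The shares over all genes were again 6.93% and 3.65% for the p and 7.07% for separate and higher. Those in this direction over genes above 10 CPM were 4.89% and 8.66%. No FAO gene passed adjustment by limma, edgeR or DESeq2, and at an unadjusted p under 0.05 edgeR called 1 and DESeq2 0. Crat, the carnitine acetyltransferase, had 12.7, 12.5 and 12.6 CPM in ND and 14.2, 16.0 and 15.8 CPM in HSD (0.27 ± 0.11, limma adjusted p = 0.680). Acaa1a, a peroxisomal thiolase, had 21.5, 22.3 and 24.2 CPM in ND and 26.0, 30.1 and 24.3 CPM in HSD (0.23 ± 0.11, limma adjusted p = 0.718). Both were separate between groups, Acaa1a by a narrow margin, and its reads are uncertain because Acaa1b is a close paralog.

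Along the pathway, 3 of 4 genes of the carnitine shuttle and 1 of 4 acyl-CoA dehydrogenases had a higher mean on HSD. Cpt1a, the entry enzyme of the shuttle, had 109, 88.1 and 103 CPM in ND and 88.0, 104 and 90.4 CPM in HSD, which overlap (-0.08 ± 0.10, limma adjusted p = 0.897). The carrier Slc25a20 (0.21 ± 0.13, limma adjusted p = 0.781) and Acsl1 (0.17 ± 0.09, limma adjusted p = 0.766) were separate and higher in HSD. Without both macrophage-high libraries the differences were 0.25 ± 0.14 for Crat and 0.11 ± 0.11 for Acaa1a, neither with an unadjusted p under 0.05. Acsl4 (0.24 ± 0.10) and Acsl1 (0.23 ± 0.11) then had one, against the 11% of all genes given above.

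**Figure D3:**
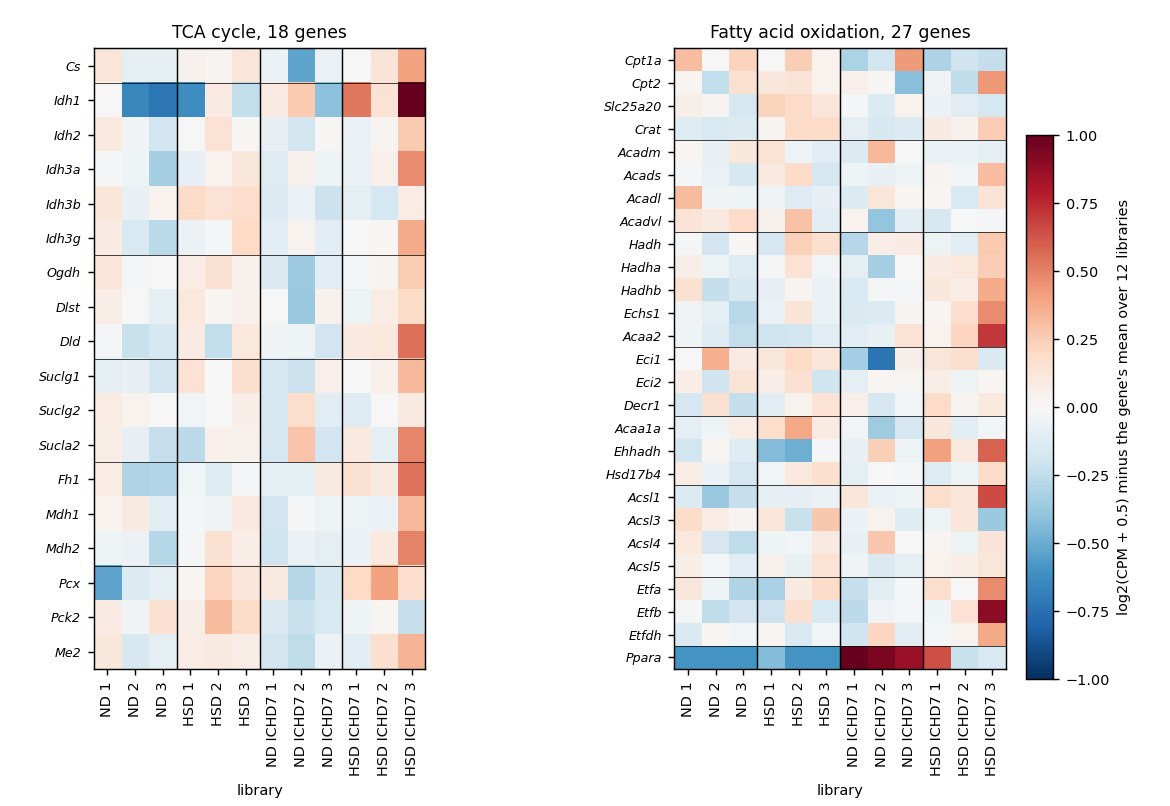
Heat map of log2(CPM + 0.5) minus the mean of each gene over 12 libraries, for TCA genes (left) and FAO genes (right), in order of pathway step. Colors are capped at -1 and 1. HSD ICHD7 replicate 3 is the highest library for 14 of 18 TCA genes and 14 of 27 FAO genes.

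After ICH, 18 of 18 TCA genes had a higher mean in HSD ICHD7 than in ND ICHD7, with a median log2 fold change of 0.22, against -0.03 over all genes and 0.07 over genes above 10 CPM, of which 64.9% were higher. Their sum was 1049, 1044 and 1081 CPM in ND ICHD7 and 1129.9, 1170.5 and 1472 CPM in HSD ICHD7. An unadjusted limma p under 0.05 was reached by 4 of 18, all higher, against 15.6% of all genes and 5.42% in this direction. The groups did not overlap for 6, all higher, against 23.4% and 10%. For genes above 10 CPM, 9.36% had such a p in this direction and 17.7% were separate and higher. After adjustment 0% of all genes passed by limma and 0 genes by edgeR, while DESeq2 passed 34 higher and 64 lower genes. None of these was a TCA gene, and at an unadjusted p under 0.05 edgeR called 5 and DESeq2 4 TCA genes. The calls over all genes were 1089 higher and 2045 lower by limma, and 1612 and 1758 by edgeR with RLE scaling.

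Cs had 66.9, 48.4 and 66.8 CPM in ND ICHD7 and 69.6, 76.5 and 92.3 CPM in HSD ICHD7 (0.39 ± 0.16, limma adjusted p = 0.291). Ogdh, the first subunit of the 2-oxoglutarate dehydrogenase complex, had 112, 96.0 and 114 CPM and 122, 126 and 148 CPM (0.29 ± 0.12, limma adjusted p = 0.294). Dld, the dihydrolipoamide dehydrogenase of that complex and of pyruvate dehydrogenase, had 43.3, 42.9 and 38.8 CPM and 47.6, 47.8 and 65.4 CPM (0.35 ± 0.14, limma adjusted p = 0.294). For these genes the groups were separate and HSD ICHD7 replicate 3 was highest. Idh1 had 33.3, 37.9 and 23.6 CPM in ND ICHD7 and 45.5, 34.7 and 93.7 CPM in HSD ICHD7 (0.76 ± 0.32, limma adjusted p = 0.303). Its groups overlapped, and HSD ICHD7 replicate 3 stood far above the rest.

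Without HSD ICHD7 replicate 3, 16 of 18 TCA genes had a higher mean, the median was 0.14 and 0 had an unadjusted limma p under 0.05, against 10.2% of all genes. The differences were then 0.28 ± 0.15 for Cs, 0.21 ± 0.11 for Ogdh, 0.19 ± 0.10 for Dld and 0.36 ± 0.19 for Idh1. Without ND ICHD7 replicate 2, 1 TCA gene kept an unadjusted p under 0.05, Idh1.

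The promoters of these 4 genes, those with an unadjusted p under 0.05 in this comparison, are shown as the 250 bases before the RefSeq start on GRCm38.p6, 5′ to 3′ on the strand of the gene. Capitals mark CCAAT boxes (CCAAT on either strand) and GC boxes (GGGCGG on either strand). The windows are chr10:128337477-128337726 on the plus strand for Cs, chr11:6291347-6291596 on the plus strand for Ogdh, chr12:31351472-31351721 on the minus strand for Dld and chr1:65186480-65186729 on the minus strand for Idh1. Of 6 starts for Ogdh and 2 for Idh1, the first was used.
Cs: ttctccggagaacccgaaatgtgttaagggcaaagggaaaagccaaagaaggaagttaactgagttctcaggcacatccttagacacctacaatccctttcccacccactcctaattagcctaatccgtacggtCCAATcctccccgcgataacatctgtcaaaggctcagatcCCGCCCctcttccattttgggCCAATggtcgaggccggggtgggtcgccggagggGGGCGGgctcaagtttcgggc
Ogdh: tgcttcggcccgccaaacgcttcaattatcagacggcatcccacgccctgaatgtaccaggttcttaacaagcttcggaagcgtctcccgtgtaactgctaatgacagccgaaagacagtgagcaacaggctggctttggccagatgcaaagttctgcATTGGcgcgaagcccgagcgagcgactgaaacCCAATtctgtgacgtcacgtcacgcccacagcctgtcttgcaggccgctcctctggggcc
Dld: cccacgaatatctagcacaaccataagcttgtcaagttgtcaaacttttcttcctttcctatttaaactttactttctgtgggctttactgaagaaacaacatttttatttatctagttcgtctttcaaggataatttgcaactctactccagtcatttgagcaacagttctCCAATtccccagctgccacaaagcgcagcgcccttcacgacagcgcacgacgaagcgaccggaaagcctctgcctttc
Idh1: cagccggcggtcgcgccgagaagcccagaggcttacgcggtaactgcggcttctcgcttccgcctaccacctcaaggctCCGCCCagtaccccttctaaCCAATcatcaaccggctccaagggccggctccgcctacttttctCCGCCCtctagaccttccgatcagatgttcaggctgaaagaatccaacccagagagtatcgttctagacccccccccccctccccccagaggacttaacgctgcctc
CCAAT boxes numbered 2 in Cs, 2 in Ogdh, 1 in Dld and 1 in Idh1, and GC boxes 2 in Cs and 2 in Idh1. Over the promoters in the table, with any start of a gene counted, a CCAAT box lay in 11 of 16 TCA genes, 11 of 23 FAO genes and 39.5% of 17492 protein-coding genes. A GC box lay in 12 of 16, 17 of 23 and 45.8%. Promoters of Idh3a, Me2, Crat, Decr1, Acaa2 and Hsd17b4 were not in the table.

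Among FAO genes after ICH, 20 of 27 had a higher mean in HSD ICHD7, with a median of 0.16. An unadjusted p under 0.05 was reached by 2 higher and 1 lower gene, against 5.42% of all genes higher and 10.2% lower. The groups did not overlap for 7 higher and 1 lower gene, against 10% and 13.3% of all genes. Of genes above 10 CPM, 9.36% had such a p and were higher, and 17.7% were separate and higher. No FAO gene passed adjustment by limma, edgeR or DESeq2, and at an unadjusted p under 0.05 edgeR and DESeq2 each called 4. Hadha, the alpha subunit of the mitochondrial trifunctional protein, had 82.6, 70.3 and 88.3 CPM in ND ICHD7 and 93.8, 95.4 and 105 CPM in HSD ICHD7 (0.29 ± 0.12, limma adjusted p = 0.291). Etfa, the partner of Etfb, had 21.9, 23.8 and 25.6 CPM and 29.2, 25.8 and 35.9 CPM (0.33 ± 0.14, limma adjusted p = 0.308). Both were separate between groups, Etfa narrowly.

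By step, 5 of 5 hydratases, dehydrogenases and thiolases had a higher mean in HSD ICHD7, with a median of 0.29, among them the enoyl-CoA hydratase Echs1 (0.31 ± 0.14, limma adjusted p = 0.322). So did 3 of 3 genes each for electron transfer (median 0.33), peroxisomal enzymes (0.17) and unsaturated chains (0.15), and 64.9% of genes above 10 CPM. Acyl-CoA dehydrogenases and fatty acid activation had 2 of 4 higher each. The carnitine shuttle had 2 of 4 higher and a median of 0.04. Cpt1a had 70.8, 77.5 and 118 CPM in ND ICHD7 and 71.0, 76.6 and 74.6 CPM in HSD ICHD7, which overlap (-0.23 ± 0.18, limma adjusted p = 0.526). Without HSD ICHD7 replicate 3, 18 of 27 FAO genes had a higher mean, with a median of 0.09, and Hadha (0.24 ± 0.12) and Etfa (0.21 ± 0.12) had an unadjusted p above 0.05. Eci1, an isomerase for unsaturated chains, then had one under it (0.48 ± 0.21).

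Ppara, the nuclear receptor that drives FAO genes in liver, lies at chr15:85734983-85802819 on the plus strand of GRCm38. It had 0 reads in the ND libraries and 1, 0 and 0 reads in the HSD libraries, too few to test. After ICH it had 22, 16 and 12 reads in ND ICHD7 (1.45, 0.955 and 0.881 CPM) and 10, 2 and 5 reads in HSD ICHD7 (0.683, 0.148 and 0.181 CPM). All HSD ICHD7 libraries were below all ND ICHD7 libraries (-0.97 ± 0.29, limma adjusted p = 0.260), with a difference of -0.85 ± 0.31 without HSD ICHD7 replicate 3. Of all genes with a mean under 1 CPM, 25.3% were separate and lower and 0.673% separate and higher.

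The diet comparisons without and after ICH share no library. A higher mean on HSD in both was found for 17 of 18 TCA genes, 15 of 26 FAO genes, 34.0% of all genes and 44.6% of genes above 10 CPM. All HSD libraries were above all ND libraries in both comparisons for 2 TCA genes (Mdh2 and Pcx) and 2 FAO genes (Acsl1 and Crat), against 1.68% of all genes and 2.67% of genes above 10 CPM. After ICH, Mdh2 had 101, 111.2 and 109 CPM in ND ICHD7 and 111.5, 124 and 163 CPM in HSD ICHD7, separate by a narrow margin. Pcx had 4.01, 2.99 and 3.30 CPM and 4.37, 5.10 and 4.26 CPM. Acsl1 had 33.66, 29.4 and 30.0 CPM and 35.0, 33.71 and 49.0 CPM, separate by less than the CPM of 1 read. Without HSD ICHD7 replicate 3 the differences after ICH were 0.14 ± 0.10 for Mdh2, 0.42 ± 0.20 for Pcx and 0.15 ± 0.11 for Acsl1. Crat had 12.4 to 13.02 CPM in the 6 ND and ND ICHD7 libraries and 14.2 to 16.7 CPM in the 6 HSD and HSD ICHD7 libraries. Its difference after ICH (0.26 ± 0.13, limma adjusted p = 0.349) was 0.20 ± 0.13 without HSD ICHD7 replicate 3. Crat lies at chr2:30400471-30415813 on the minus strand.

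**Figure D4:**
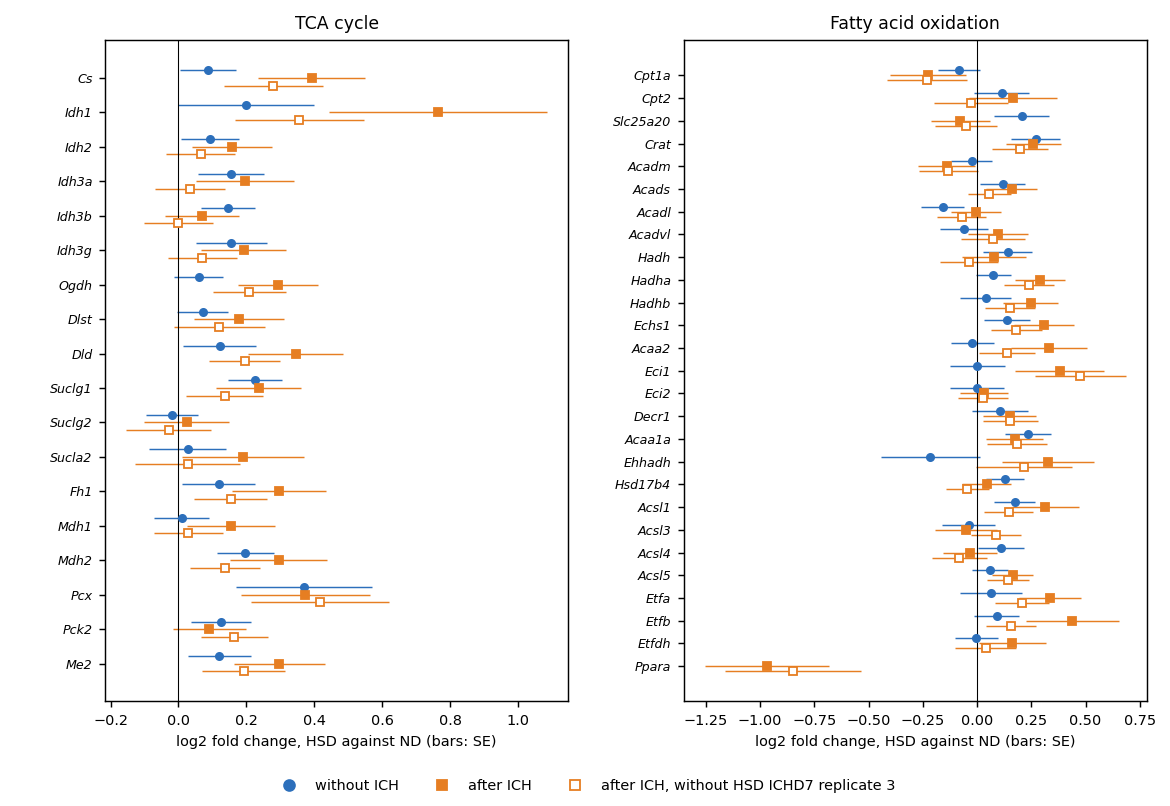
Log2 fold change of HSD against ND (x axis) for TCA genes (left) and FAO genes (right), without ICH, after ICH, and after ICH without HSD ICHD7 replicate 3. Bars are standard errors from limma. Most TCA symbols lie to the right of 0, and Ppara lies at -0.97 after ICH.

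The change of the diet effect with ICH was tested as an interaction over 12 libraries. Of 18 TCA genes, 16 had a larger difference after ICH, with a median of 0.10, and 10 with a median of 0.03 without HSD ICHD7 replicate 3. None had an unadjusted p under 0.05 by limma, edgeR or DESeq2, where 8.35% of all genes did by limma and 0% passed adjustment by limma, edgeR or DESeq2. Those genes were 453 with a larger and 1250 with a smaller difference after ICH by limma, and 602 and 648 by edgeR with TMM. Whatever the p, 45.7% of all genes had a larger difference, with a median of -0.03. Of genes above 10 CPM 59.4% did, with a median of 0.04. The smallest p-values belonged to Ogdh (0.23 ± 0.13, limma adjusted p = 0.635) and Cs (0.31 ± 0.19, limma adjusted p = 0.646), followed by Idh1 (0.57 ± 0.44, limma adjusted p = 0.718) and Dld (0.22 ± 0.19, limma adjusted p = 0.738). Of the FAO genes, Ppara had an unadjusted limma p under 0.05 (-1.02 ± 0.32, limma adjusted p = 0.525), but it had at most 1 read in any library without ICH and entered the test through the ICHD7 libraries, so that this value restates its difference after ICH and compares no diet effects. It was followed by Ehhadh (0.54 ± 0.29, limma adjusted p = 0.629), Acaa2 (0.35 ± 0.21, limma adjusted p = 0.639) and Slc25a20 (-0.28 ± 0.17, limma adjusted p = 0.641), whose unadjusted p was above it.

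ICH was compared with no ICH within each diet, in comparisons that share libraries with those of diet. Libraries without ICH had 1393 to 1755 listed genes without a read and ICHD7 libraries 2 to 29, and this difference and ICH cannot be told apart. Of genes with a mean under 1 CPM, 63.9% were separate and higher after ICH on ND and 44.0% on HSD, against 4.33% and 9.10% of genes over 10 CPM.

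On ND, 9 of 18 TCA genes had a higher mean after ICH, against 50.8% of all genes and 32.7% of genes above 10 CPM. Their median was -0.01, or just above 0 with RLE scaling, against 0.01 and -0.08. No TCA gene passed adjustment by limma, edgeR or DESeq2, where 16.7% of all genes did by limma. An unadjusted p under 0.05 was reached by 2 by limma, 3 by edgeR and 2 by DESeq2, against 28.4% of all genes. Pck2, the mitochondrial phosphoenolpyruvate carboxykinase, had 57.4, 52.8 and 60.2 CPM in ND and 48.8, 46.2 and 48.5 CPM in ND ICHD7 (-0.24 ± 0.08, limma adjusted p = 0.0743). Ogdh had 134, 122 and 123 CPM in ND, above its values in ND ICHD7 (-0.24 ± 0.09, limma adjusted p = 0.110). Both were separate and lower after ICH, as were 14.3% of all genes and 24.5% of genes over 10 CPM. Idh1 had 31.5, 19.8 and 18.8 CPM in ND and overlapped with ND ICHD7 (0.44 ± 0.21, limma adjusted p = 0.216), and Idh3b had a difference of -0.16 ± 0.09, limma adjusted p = 0.249. Without ND replicate 1, high in macrophage markers, Idh1 rose (0.67 ± 0.18, limma adjusted p = 0.0351), where 15.5% of all genes passed.

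Of the FAO genes on ND, 15 of 27 had a higher mean after ICH, with a median of 0.01. For genes above 10 CPM these were 32.7% and -0.08. In the FAO list 1 passed adjustment, Ppara (1.66 ± 0.17, limma adjusted p = 7.26e-05). It entered the test through the ND ICHD7 libraries alone, which had to be higher for it to be tested, and it was among the genes under 1 CPM of which 63.9% were separate and higher. Against a floor of 3 reads per ND library, its mean of 1.09 CPM in ND ICHD7 was at least 5.49-fold higher, and the fitted value is no bound. With Ppara at this bound, the median of the list was 0.01. Acsl1 had 28.1, 23.8 and 26.3 CPM in ND and 33.7, 29.4 and 30.0 CPM in ND ICHD7 (0.25 ± 0.10, limma adjusted p = 0.132). It was separate and higher, as were 19.1% of all genes and 4.33% of genes over 10 CPM. Eci1 (-0.48 ± 0.20, limma adjusted p = 0.136) and Acadvl (-0.29 ± 0.12, limma adjusted p = 0.140) had lower means and an unadjusted p under 0.05.

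On HSD, 14 of 18 TCA genes had a higher mean after ICH, with a median of 0.07. These were 49.3% and -0.01 for all genes and 42.5% and -0.04 for genes above 10 CPM. Of the TCA genes, none passed adjustment by limma or edgeR and 1 by DESeq2, Idh1, where 6.58% of all genes did by limma. An unadjusted p under 0.05 was reached by 4 by limma and 2 by each of edgeR and DESeq2, against 21.5% of all genes. Idh1 had 20.3, 33.4 and 26.5 CPM in HSD, all below HSD ICHD7 (1.00 ± 0.32, limma adjusted p = 0.114). Fh1, fumarase, was separate and higher (0.32 ± 0.13, limma adjusted p = 0.202). Pck2 (-0.28 ± 0.11, limma adjusted p = 0.188) and Idh3b (-0.24 ± 0.10, limma adjusted p = 0.202) were separate and lower. The shares were 14.2% higher and 14.5% lower for all genes, and 9.10% and 20.3% for genes over 10 CPM. Without HSD ICHD7 replicate 3 the median turned to -0.05, with 13 of 18 lower. Idh1 (0.59 ± 0.18) and Idh3b (-0.31 ± 0.09) then had an unadjusted p under 0.05, against 15.6% of all genes.

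Of the FAO genes on HSD, 15 of 26 had a higher mean after ICH, with a median of 0.03. For genes above 10 CPM these were 42.5% and -0.04. No FAO gene passed adjustment by limma, edgeR or DESeq2. An unadjusted p under 0.05 was reached by 4 by limma, 4 by edgeR and 5 by DESeq2, where 21.5% of all genes reached it by limma. Cpt1a, at chr19:3322334-3385733, had 88.0, 104 and 90.4 CPM in HSD and 71.0, 76.6 and 74.6 CPM in HSD ICHD7, separate and lower (-0.34 ± 0.10, limma adjusted p = 0.0792), and -0.35 ± 0.10 without HSD ICHD7 replicate 3. All 4 carnitine shuttle genes had lower means, Crat by very little (-0.005 ± 0.13). Acaa2, the mitochondrial thiolase, had 21.5, 21.8 and 22.9 CPM in HSD and 25.4, 28.8 and 40.7 CPM in HSD ICHD7 (0.48 ± 0.17, limma adjusted p = 0.139). Acsl1 (0.39 ± 0.15, limma adjusted p = 0.165) and Ehhadh (0.67 ± 0.24, limma adjusted p = 0.147) were separate and higher as well. Without HSD ICHD7 replicate 3, Cpt1a, Acaa2 (0.29 ± 0.12) and Acsl1 (0.22 ± 0.10) had an unadjusted p under 0.05 and Ehhadh (0.56 ± 0.27) did not.

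**Figure D5:**
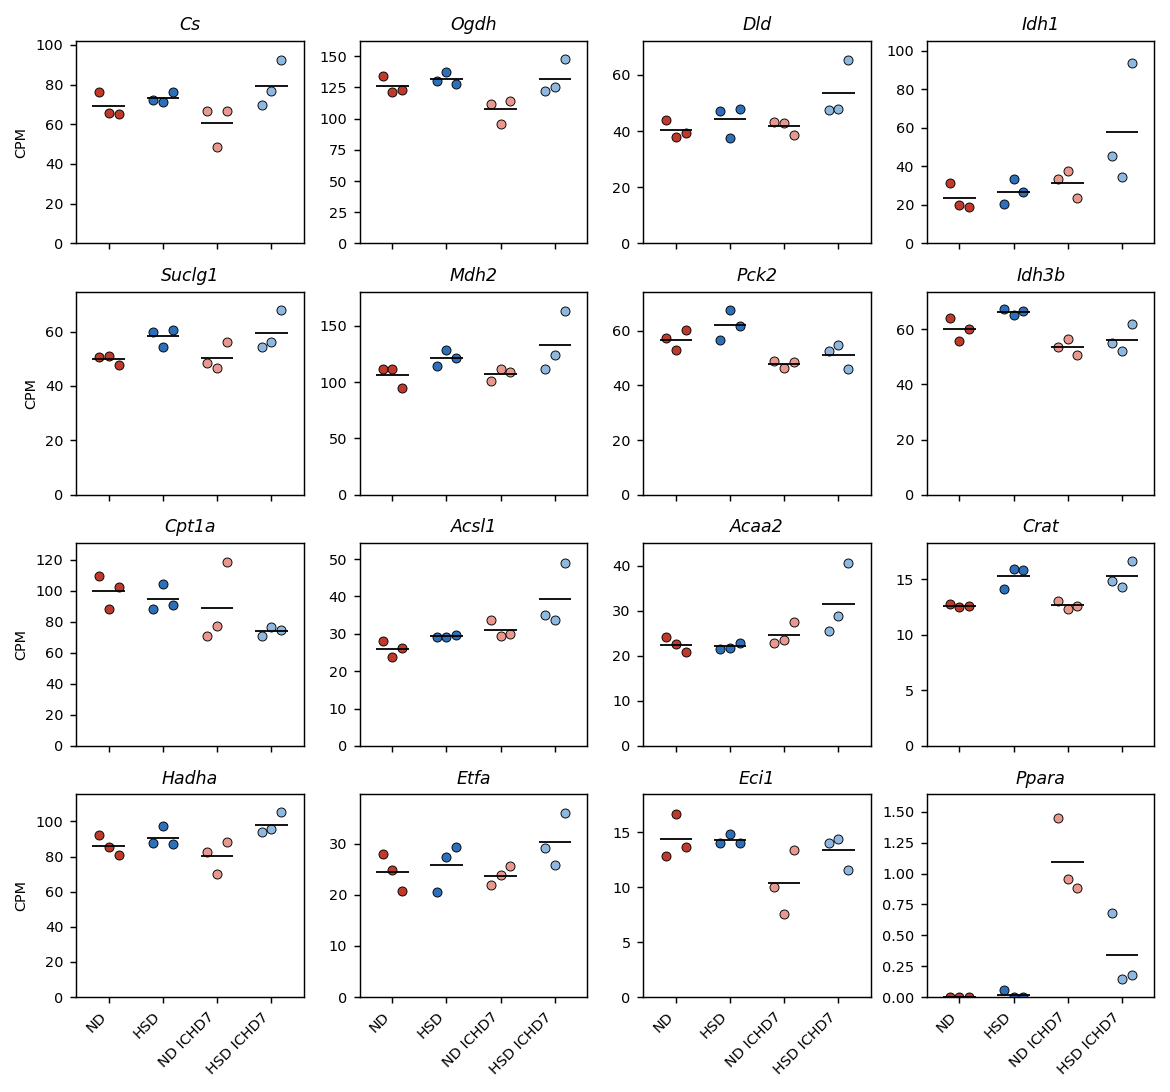
CPM per library (y axis, from 0, its own scale for each gene) of 16 genes, by group (x axis). Points are libraries and lines are group means of 3 libraries. Mdh2, Acsl1 and Crat are separate between the diets with and without ICH, Mdh2 and Acsl1 only narrowly after ICH. The highest point of Idh1, at 93.7 CPM, is HSD ICHD7 replicate 3.

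Other genes of these pathways were read from lists of 40 TCA-related and 50 FAO-related genes. Without ICH, 24 of 35 TCA-related and 23 of 43 FAO-related genes tested had a higher mean on HSD, and 1 and 0 had an unadjusted limma p under 0.05, against 6.93% of all genes. That gene, the cytosolic aspartate aminotransferase Got1, had 9.11 ± 0.917 CPM in ND and 11.8 ± 0.322 CPM in HSD (0.36 ± 0.13, limma adjusted p = 0.619). The succinate dehydrogenase subunit Sdhb (0.19 ± 0.10, limma adjusted p = 0.755), the acetyl-CoA acetyltransferase Acat1 (0.19 ± 0.10, limma adjusted p = 0.755) and Nudt7 (0.23 ± 0.13, limma adjusted p = 0.775) came next in their lists. After ICH, 30 of 38 and 26 of 49 had a higher mean in HSD ICHD7, and 8 and 7 had an unadjusted p under 0.05 (21.1% and 14.3%), against 15.6% of all genes. The dicarboxylate carrier Slc25a10 had 9.06 ± 0.824 CPM in ND ICHD7 and 13.6 ± 1.70 CPM in HSD ICHD7 (0.56 ± 0.15, limma adjusted p = 0.255). Oxct1, which activates ketone bodies, had 84.3 ± 6.64 CPM in ND ICHD7 and 105 ± 6.31 CPM in HSD ICHD7 (0.31 ± 0.11, limma adjusted p = 0.267), and Ogdhl, a paralog of Ogdh, 1.03 ± 0.308 and 0.454 ± 0.0566 CPM (-0.66 ± 0.22, limma adjusted p = 0.267). In the interaction Ogdhl (-1.04 ± 0.39, limma adjusted p = 0.541), Me1 (-0.84 ± 0.40, limma adjusted p = 0.607) and Oxct1 (0.28 ± 0.12, limma adjusted p = 0.596) had small p-values within their lists, and none passed adjustment. Ogdhl had fewer than 10 reads in every library without ICH, at 0.0883 ± 0.0375 CPM in ND and 0.323 ± 0.417 CPM in HSD. Its value joins the difference between these low levels to that after ICH (-0.66 ± 0.22). It does not show that a diet effect differed.

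For ICH on ND, 4 TCA-related and 4 FAO-related genes passed adjustment of 38 and 47 tested, a smaller share than the 16.7% of all genes. On HSD 1 of 37 and 2 of 47 did, also a smaller share than the 6.58% of all genes. Me3, Ogdhl, Acox2 and Acsl6, which led these lists, had fewer than 10 reads in every library without ICH. They entered the tests through the ICHD7 libraries, so that their values are given as a description. The malic enzyme Me3 had 0.0467 ± 0.0808 CPM in ND and 2.37 ± 0.408 CPM in ND ICHD7 and 0.0670 ± 0.116 and 1.44 ± 0.563 CPM on HSD. On ND, Ogdhl had 0.0883 ± 0.0375 and 1.03 ± 0.308 CPM, the peroxisomal oxidase Acox2 had 0.0686 ± 0.0700 and 1.03 ± 0.107 CPM and the synthetase Acsl6 0.355 ± 0.0817 and 2.11 ± 0.507 CPM. On HSD, Acox2 was listed at 0 without ICH and had 0.653 ± 0.159 CPM after it, at least 2.45-fold higher against the same floor. The mitochondrial pyruvate carrier subunit Mpc1 did not pass (0.61 ± 0.21, limma adjusted p = 0.134). Abcd2, a peroxisomal importer of fatty acids, rose from 6.83 ± 1.95 to 13.8 ± 2.90 CPM on ND (0.97 ± 0.22, limma adjusted p = 0.0112) and from 8.34 ± 4.002 to 25.3 ± 13.6 CPM on HSD (1.51 ± 0.38, limma adjusted p = 0.0460).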

How the data were processed

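RNA from 12 HSPC libraries was analyzed, grouped by the labels. Per the labels and the study's methods, the authors used mm10, featureCounts and edgeR 3.24.3 and deposited CPM on TMM-scaled library sizes. Values were whole multiples of the CPM of 1 read (100% of values, tolerance 0.01 reads), which gave reads.

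A gene entered a test where 3 or more of its libraries held 10 reads or more. The test was limma 3.58.1 in R 4.3.3, with a mean-variance trend on log2(CPM + 0.5) and Benjamini-Hochberg adjustment over all genes tested. The procedure was tested on simulated data. Pairs of groups used 6 libraries and the interaction 12. An unadjusted p under 0.05 counted as a call for diet and the interaction, and an adjusted p under 0.05 for ICH. Alternatives were the quasi-likelihood test of edgeR 4.0.16 with TMM or RLE, DESeq2 1.42.0, other pseudocounts and filters, a replicate block, 1 fit of all libraries, and libraries left out. The p-values measure the spread between libraries, which for ICHD7 may be technical.

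The genes and lists were chosen with earlier results of these data known. Values were given for the 4 genes with the smallest p per pathway and comparison, the 3 highest and 2 lowest per length, untested genes, Cs, Cpt1a, Ppara and paralogs, and the 2 related genes with the smallest p per list and comparison, of which 1 is not reported here. Mdh2, Pcx, Acsl1 and Crat after ICH, Abcd2 on ND and genes called without some libraries were chosen after their values were seen. Exon lengths came from GENCODE M21, with 20550 of 20792 IDs found.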

Additional observations from a re-analysis of the deposited data

Results flagged for a closer look

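Ppara was picked out by the interaction of diet and ICH, with a value of -1.02 on the log2 scale and an unadjusted limma p under 0.05 (limma adjusted p = 0.525). It had 22, 16 and 12 reads in ND ICHD7, 10, 2 and 5 in HSD ICHD7 and at most 1 in any library without ICH, and the unadjusted p was above 0.05 by edgeR and by DESeq2. With so few reads without ICH, the value restates the difference between the diets after ICH and does not show that a diet effect differed.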

How the results depend on the processing

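For HSD against ND without ICH, the 2 TCA calls became 1 with edgeR and TMM, with DESeq2 and with 1 fit of all libraries, and 7 without both macrophage-high libraries. The 2 FAO calls became 1 with a pseudocount of 1, edgeR with TMM or RLE and 1 fit of all libraries, and 0 with DESeq2. Over all genes, adjusted calls were 2 higher and 11 lower by limma and 15 and 50 by DESeq2. After ICH, 1 fit of all libraries gave 8 TCA calls in place of 4 and 9 FAO calls in place of 3, and RLE 7 FAO calls. The shares of all genes called were 21.1% in that fit, 16.8% with RLE and 15.6% by limma on 6 libraries. After adjustment that fit passed 77 higher and 220 lower genes, where limma on 6 libraries passed 0. For ICH on ND, TCA calls were 1 in place of 0 without both macrophage-high libraries, and FAO calls 0 in place of 1 with the authors' CPM filter, which removes Ppara. For ICH on HSD, TCA calls were 1 in place of 0 with DESeq2 and with 1 fit of all libraries, and that fit gave 2 FAO calls in place of 0. Over all genes, that fit passed 2664 higher and 880 lower of 20393, against 961 and 228 of 18082 by limma on 6 libraries. The FAO call of the interaction was lost (0) with the CPM filter, edgeR with TMM or RLE, and DESeq2. Other than by what each alternative leaves out, the cause was not tested.

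Same-numbered libraries deviated from their group means with correlations of -0.191 to 0.0943, with 0 of 18 pairs over 0.1. The labels give only the number, and whether such libraries were handled together was not tested. With a replicate block, calls without ICH were 1 for TCA and 0 for FAO, and FAO calls after ICH were 6, and the block changed no other count of calls.

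Leaving out 1 library at a time gave 0 to 6 TCA and 0 to 2 FAO calls without ICH, 0 to 6 and 1 to 5 after ICH, 0 to 1 and 0 to 1 for ICH on ND, 0 to 0 and 0 to 0 for ICH on HSD, and 0 to 0 and 1 to 3 for the interaction. Among the diet calls, those without ICH numbered 6 (TCA) without ND replicate 1, 0 without ND replicate 3 and 1 without HSD replicate 1 or 3, and 0 (FAO) without ND replicate 2 or HSD replicate 2 and 1 without ND replicate 1 or 3. After ICH they were 0 (TCA) without HSD ICHD7 replicate 3, 1 without ND ICHD7 replicate 1 or 2 and 2 without ND ICHD7 replicate 3, and 1 (FAO) without ND ICHD7 replicate 1 or 2, and HSD ICHD7 replicate 1 left out gave 6 and 5 calls. FAO calls of the interaction were 3 without HSD ICHD7 replicate 1 and 2 without HSD replicate 3, ND ICHD7 replicate 3 or HSD ICHD7 replicate 2. The TCA call for ICH on ND appeared without ND replicate 1. The FAO call on ND was lost without any 1 ND ICHD7 library, when Ppara had too few reads to test. The median stayed above 0 for both pathways in both diet comparisons and in the interaction, where that of FAO was 0.0324 to 0.13, and crossed 0 for ICH on ND (-0.0758 to 0.00950 for TCA, -0.0233 to 0.0459 for FAO) and on HSD (-0.0466 to 0.16 for TCA, -0.00227 to 0.0865 for FAO). With 3 libraries per group, limma, edgeR and DESeq2 on the libraries of each diet comparison passed no TCA gene after adjustment.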
